A study of Oryctolagus cuniculus with 16 samples.

Results

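The 52 DNA replication and S phase genes described here were taken by symbol from a table of 20255 genes measured in rabbit femoral heads, and 49 of them were listed and passed the filter on low counts. *POLD1*, *UHRF1* and *CHAF1A* were not matched by symbol and were not analysed here. Total RNA had been taken from 5 rabbits with Perthes disease, a loss of blood supply to the growing femoral head, and from 3 control rabbits. The disease was modelled surgically in wild-type rabbits aged 8 weeks by tying a non-absorbable suture around the femoral neck and cutting the ligamentum teres. The controls carried the genotype label WT and were described as healthy, while their age, any sham operation and the time between surgery and harvest were not given in the sources used here. The Perthes group is thus a surgical model, although its label stands in the genotype field, and each library held RNA of all cells of the tissue taken.

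DNA is copied once per cell division. In G1 the origin recognition complex, CDC6 and CDT1 load the ring of MCM2 to MCM7 onto DNA, and at the start of S phase the kinases CDC7 and cyclin E-CDK2, with TICRR, MCM10, CDC45 and the GINS proteins, turn that ring into the moving CMG helicase. Polymerase alpha with its primase begins each strand, polymerases epsilon and delta extend it behind the PCNA clamp, FEN1 and LIG1 join the pieces, and ribonucleotide reductase and thymidylate synthase supply the nucleotides. Most of these genes are transcribed in dividing cells under E2F control. In a growing femoral head, blood precursors of the marrow, growth cartilage and bone-forming cells are among the dividing populations.

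The 8 libraries held 27331725 to 29461482 estimated counts in the Perthes group (n = 5) and 26757087 to 28783082 in the control group (n = 3). Levels are given as CPM (a gene's counts relative to its library total, scaled by the TMM factors of edgeR), and fold changes as log2 of Perthes over control with their standard error (SE). A gene was called at a Benjamini-Hochberg adjusted p below 0.05 over all 15305 genes tested by the quasi-likelihood F-test of edgeR. The tissue label was checked against marker genes. The summed level of 6 chondrocyte markers was 34250 to 139100 CPM and that of 7 osteoblast markers 46070 to 145400 CPM over the 8 libraries, and 3 listed skeletal muscle markers together gave 0.388 to 9.48 CPM. Most of the chondrocyte sum was *COL2A1* and most of the osteoblast sum *COL1A1*. Nothing in the sources stated a batch, a shared litter or a surgery day, and p-values measure the spread between these rabbits.

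Replication genes were lower in the Perthes femoral heads almost throughout. Of the 49 members tested, 41 fell, against 8.86% of all genes tested that were called lower. No member was called higher by edgeR, where 6.21% of all genes were, and none was higher at an unadjusted p below 0.05 or by DESeq2. Over all genes, 2345 of 15305 were higher at that unadjusted p, and DESeq2 called 1700 higher. The fall passed a log2 fold change of -1 in 30 members, against 6.72% of all genes. In 46 members every Perthes rabbit lay below every control rabbit, which held for 13.9% of all genes. DESeq2 called 44 members lower, against 11.0% of the genes to which it gave an adjusted p. The median log2 fold change of the members was -1.14, compared with 0.02 over all genes tested, and 48 of 49 values were negative. The values ran from -2.87 for *E2F2* to 0.22 for *DSCC1*.

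**Figure D1:**
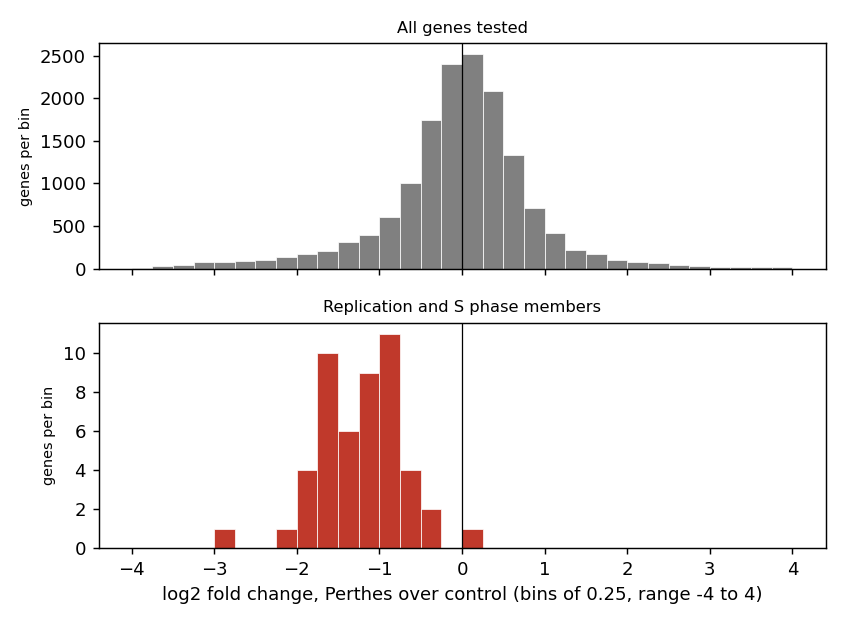
Number of genes per bin of log2 fold change (Perthes over control, bins of 0.25, drawn from -4 to 4) for all genes tested (upper panel) and for the 49 members (lower panel). All genes centre near 0, with a median of 0.02, and the members centre at -1.14 with 1 member above 0.

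The calls by edgeR depended on single rabbits, while the median difference moved less. Without control rabbit 2, edgeR called 0 members and 0 genes of any kind lower, although 45 members had an unadjusted p below 0.05 and the median was -1.27. Without control rabbit 1 it called 2 members lower, without Perthes rabbit 3 it called 15 and without Perthes rabbit 5 it called 13. Over all genes it called 184, 646 and 550 lower in these fits, against 1356 with all 8 libraries. DESeq2 called 37 to 44 members, and 1209 to 2063 of all genes, lower when each rabbit was left out in turn. The median of the members stayed between -0.96 and -1.31 in all of these fits, and 48 members were negative in each.

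**Figure D2:**
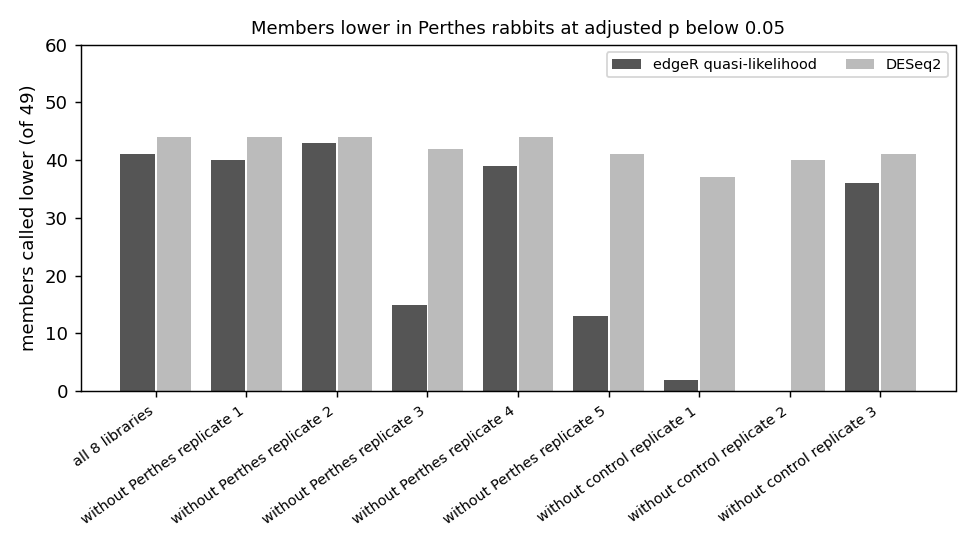
Number of the 49 members called lower in Perthes rabbits at an adjusted p below 0.05 by edgeR (dark bars) and DESeq2 (light bars), with all 8 libraries and with each library left out. The edgeR bars fall to 0 without control rabbit 2 and to 2 without control rabbit 1, and the DESeq2 bars stay between 37 and 44.

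The rabbits of a group were not alike. The summed level of the 49 members was 702, 1444, 875, 1008 and 814 CPM in Perthes rabbits 1 to 5 and 3073, 2213 and 2067 CPM in control rabbits 1 to 3. Perthes rabbit 2 was thus the highest of its group and still below the lowest control, and control rabbit 1 stood above the other controls. Gene by gene, Perthes rabbit 2 had the highest Perthes value in 42 of 49 members and Perthes rabbit 1 the lowest in 33. Control rabbit 1 had the highest control value in 39. Relative to the mean of the controls, the median member stood at 35.5%, 62.2%, 39.9%, 45.1% and 40.6% in Perthes rabbits 1 to 5.

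**Figure D3:**
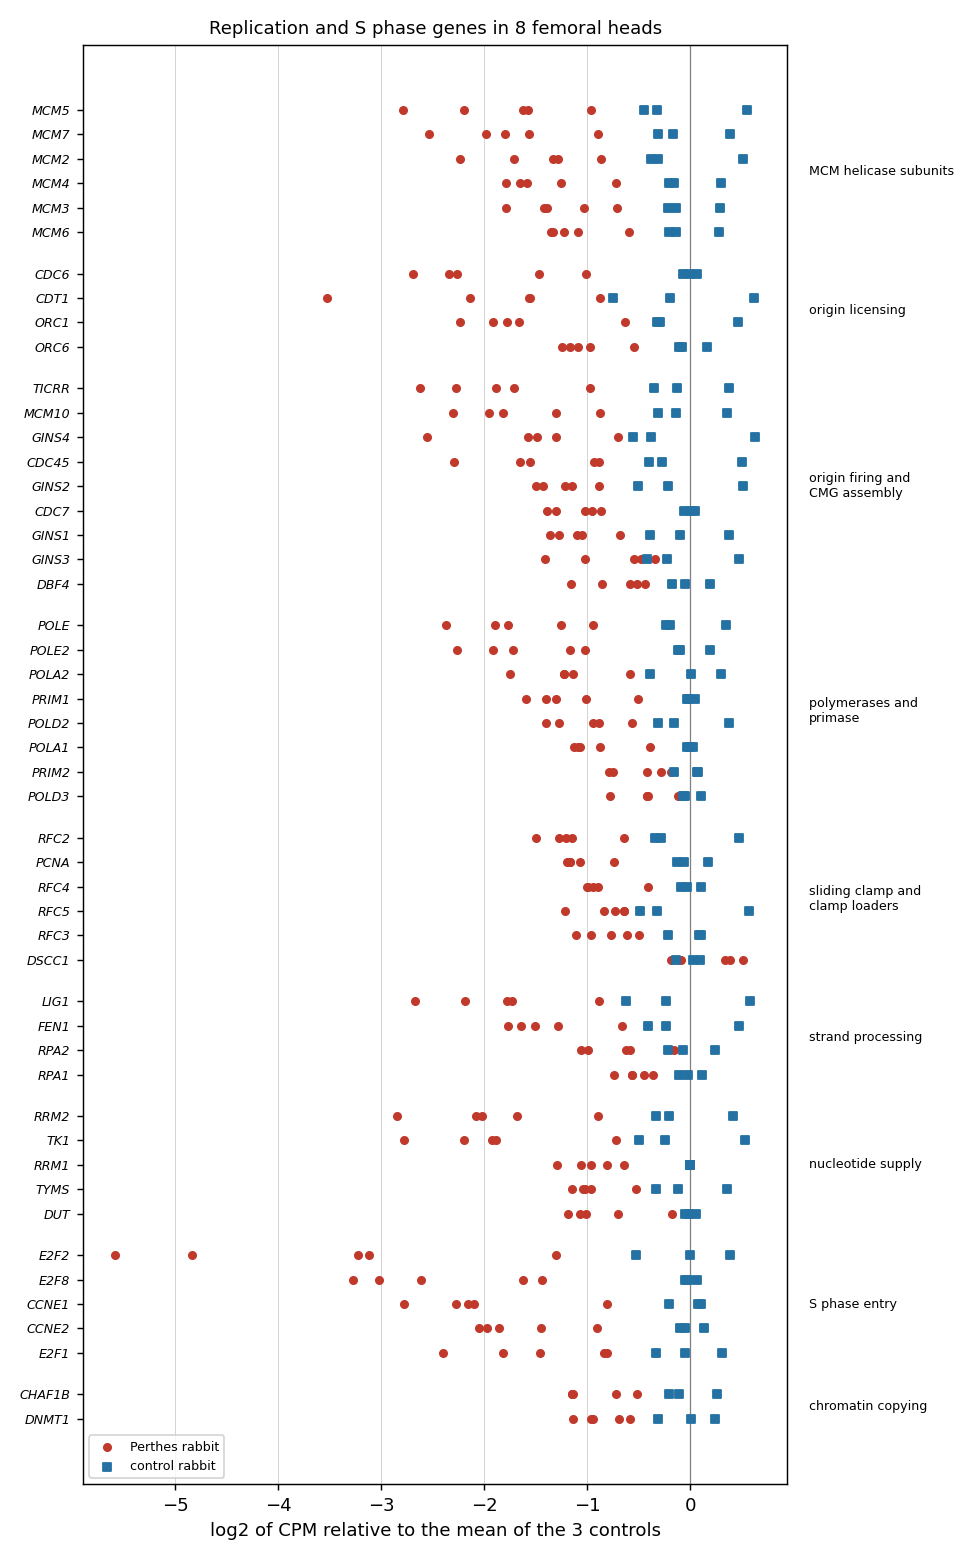
Level of each of the 49 members in every rabbit, as log2 of CPM relative to the mean of the 3 controls, grouped by role and ordered within a role by fold change. Circles are Perthes rabbits and squares are controls. The groups overlap only for *GINS3*, *RPA2* and *DSCC1*, and the *E2F2* circles spread more widely than those of any other member.

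All 6 subunits of the MCM2 to MCM7 ring, the core of the replicative helicase, fell, with log2 fold changes from -1.70 to -1.09. *MCM4* (Gene ID 100349822) was at 31.6, 66.2, 36.4, 45.9 and 34.8 CPM in Perthes rabbits 1 to 5 and at 134, 94.6 and 97.8 CPM in the controls. The lowest control lay above the highest Perthes rabbit, and the gene fell by 1.34 ± 0.26 (SE) on the log2 scale (adjusted p = 0.0147). *MCM6* (Gene ID 100343390) showed the mildest fall of the ring, with 45.0, 76.1, 45.7, 53.9 and 49.1 CPM against 139.7, 99.6 and 104 CPM (log2 fold change -1.09 ± 0.21, adjusted p = 0.0152). *MCM5* (Gene ID 100345230) showed the steepest, from 173, 94.3 and 86.4 CPM in controls to 17.2, 60.6, 38.4, 39.8 and 25.8 CPM (log2 fold change -1.70 ± 0.39, adjusted p = 0.0226). It also had the largest p of the 6, and the spread was wide in both groups, since control rabbit 1 and Perthes rabbit 2 each stood far above the rest. *MCM2*, *MCM3* and *MCM7* had log2 fold changes of -1.41, -1.22 and -1.65. The summed ring stood at 37.6% of the control mean.

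Of the 4 licensing factors, which place that ring on origins, 3 fell. *CDC6* (Gene ID 100357421), the loader ATPase, was nearly uniform in the controls at 30.1, 27.3 and 28.7 CPM and was 4.46, 14.3, 5.99, 10.4 and 5.65 CPM in Perthes rabbits (log2 fold change -1.82 ± 0.35, adjusted p = 0.0151). *ORC6* (Gene ID 100348944), the smallest subunit of the origin recognition complex, was 2.19, 3.37, 2.31, 2.51 and 2.08 CPM against 5.54, 4.58 and 4.66 CPM (log2 fold change -0.98 ± 0.23, adjusted p = 0.0246). *ORC1*, which binds origins in G1, fell by 1.53 on the log2 scale. *CDT1* (Gene ID 100357036), the other MCM loader, was 2.84, 17.8, 11.1, 11.02 and 7.42 CPM against 49.95, 28.4 and 19.3 CPM. Its groups did not overlap, but the rabbits differed widely within both groups. The gene missed the threshold in edgeR (log2 fold change -1.70 ± 0.50, adjusted p = 0.0506), while DESeq2 called it (adjusted p = 0.00799). Other subunits of the origin recognition complex that are not members had log2 fold changes of -0.14 for *ORC2*, -0.09 for *ORC3*, 0.39 for *ORC4* and -0.07 for *ORC5*, none of them called, and whether they differ from *ORC1* and *ORC6* was not tested.

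Of the 9 factors that fire origins and assemble the CMG helicase, 8 fell. *CDC7* (Gene ID 100343407), the kinase that phosphorylates the MCM ring, was tight within both groups, with 8.21, 7.83, 6.06, 8.70 and 6.43 CPM in Perthes rabbits and 15.2, 16.4 and 15.9 CPM in controls. It fell by 1.09 ± 0.17 on the log2 scale (adjusted p = 0.0122), and here Perthes rabbit 2 was not the highest of its group. *DBF4*, the activating partner of CDC7, fell less, by 0.68 ± 0.20 (adjusted p = 0.0467). *TICRR* (Gene ID 103352503), the cyclin-dependent kinase target that brings TOPBP1 to the origin, was 2.84, 8.91, 4.74, 5.35 and 3.61 CPM against 22.8, 15.97 and 13.7 CPM (log2 fold change -1.78 ± 0.35, adjusted p = 0.01555).

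The GINS complex has 4 subunits that work as a single tetramer, and the genes of 3 of them fell. *GINS1*, *GINS2* and *GINS4* had log2 fold changes of -1.07, -1.22 and -1.41, and *GINS4* was the called member closest to the threshold (adjusted p = 0.0497). *GINS3* (Gene ID 100338732) was 1.82, 3.33, 3.82, 3.49 and 2.38 CPM against 6.75, 4.16 and 3.62 CPM. Perthes rabbit 3 lay above control rabbit 3, so the groups overlapped, and the gene was not called (log2 fold change -0.71 ± 0.32, adjusted p = 0.159). *MCM10* and *CDC45*, which join and activate the helicase, fell by 1.56 and 1.37 on the log2 scale.

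Of 8 listed genes for polymerase subunits and primase, 6 fell. *POLE* (Gene ID 100338950), the catalytic subunit of the leading-strand polymerase epsilon, was 17.4, 46.7, 26.4, 37.6 and 24.2 CPM in Perthes rabbits and 115, 78.5 and 76.3 CPM in controls (log2 fold change -1.56 ± 0.31, adjusted p = 0.01535). Its partner *POLE2* (Gene ID 100345613) fell by nearly as much, from 5.72, 7.09 and 5.82 CPM to 1.89, 3.07, 1.65, 2.77 and 1.29 CPM (log2 fold change -1.54 ± 0.30, adjusted p = 0.01535). *POLD3* (Gene ID 100357626), an accessory subunit of the lagging-strand polymerase delta, was 21.6, 17.6, 13.6, 17.4 and 17.5 CPM against 22.6, 22.3 and 25.1 CPM. These groups lay apart by a small margin and the gene was not called (log2 fold change -0.41 ± 0.17, adjusted p = 0.129). The polymerase alpha genes *POLA1* and *POLA2* fell by 0.88 and 1.14 on the log2 scale, and *POLD2* by 0.98.

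Primase has a catalytic and a regulatory subunit, and only the gene of the catalytic subunit was called. *PRIM1* fell by 1.11 ± 0.25 on the log2 scale (adjusted p = 0.0217), from 13.1, 13.8 and 13.2 CPM in controls to 5.44, 9.44, 4.44, 6.62 and 5.07 CPM. *PRIM2*, the regulatory subunit, was 15.9, 14.8, 10.5, 10.7 and 13.4 CPM against 16.1, 19.0 and 18.9 CPM (log2 fold change -0.46 ± 0.19, adjusted p = 0.125). The ratio of *PRIM1* to *PRIM2* in a library, whose size also depends on gene length, was 0.343 to 0.638 in Perthes rabbits and 0.699 to 0.812 in controls. It was lower in every Perthes rabbit than in every control. This and 9 other ratios of partner genes were chosen after the values were seen and carry no test.

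Of the 6 genes of the sliding clamp and its loaders, 4 fell, and their log2 fold changes ran from -1.12 to 0.22. *PCNA* (Gene ID 100339381), the clamp that tethers the polymerases, had the smallest adjusted p of all members (0.0118). It was 53.6, 67.5, 50.2, 50.3 and 49.4 CPM in Perthes rabbits and 127, 103 and 108 CPM in controls, a fall of 1.06 ± 0.16 on the log2 scale. *RFC2* (Gene ID 100343517), a subunit of the clamp loader, was 11.1, 20.1, 13.0, 14.1 and 13.6 CPM against 43.5, 24.7 and 25.7 CPM (log2 fold change -1.12 ± 0.25, adjusted p = 0.0211). *RFC3* and *RFC4* fell by 0.77 and 0.83 on the log2 scale. *RFC5* had a log2 fold change of -0.79 with an adjusted p of 0.0754 by edgeR and 0.0456 by DESeq2. The large subunit gene *RFC1*, which is not a member, had a log2 fold change of 0.37 and was not called (adjusted p = 0.339).

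*DSCC1* (Gene ID 100353253), part of the alternative clamp loader that serves sister chromatid cohesion, was the single member with a positive value. It was 5.10, 5.77, 3.56, 5.28 and 3.81 CPM in Perthes rabbits and 3.68, 4.13 and 4.32 CPM in controls. The groups overlapped and the gene was not called (log2 fold change 0.22 ± 0.23, adjusted p = 0.546). The ratio of *PCNA* to *DSCC1* was 9.53 to 14.1 in Perthes rabbits and 24.96 to 34.6 in controls, without overlap.

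Of the 4 strand-processing genes, 3 fell. *FEN1* (Gene ID 100352966), the nuclease that trims Okazaki fragment flaps, was 11.7, 25.2, 16.4, 14.1 and 12.8 CPM in Perthes rabbits and 55.6, 34.0 and 30.1 CPM in controls (log2 fold change -1.31 ± 0.29, adjusted p = 0.02095). *LIG1* (Gene ID 100340979), the ligase that seals those fragments, was 13.4, 46.6, 24.97, 25.9 and 18.9 CPM against 128, 72.7 and 55.8 CPM (log2 fold change -1.72 ± 0.40, adjusted p = 0.0229). Both had control rabbit 1 and Perthes rabbit 2 as the highest of their groups. RPA coats single-stranded DNA in replication and also in repair. *RPA1* fell by 0.53 ± 0.14 on the log2 scale (adjusted p = 0.0363), the smallest fall of any called member. *RPA2* (Gene ID 100347550) was 14.3, 26.9, 15.1, 19.9 and 19.4 CPM against 35.4, 28.5 and 25.8 CPM, with Perthes rabbit 2 above control rabbit 3, and was not called (log2 fold change -0.65 ± 0.23, adjusted p = 0.0833).

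Of the 5 nucleotide supply genes, 4 fell. *RRM1* (Gene ID 100345823), the large subunit of ribonucleotide reductase, was almost the same in the 3 controls, at 87.9, 87.8 and 88.2 CPM, and was 45.1, 56.4, 36.0, 50.4 and 42.4 CPM in Perthes rabbits (log2 fold change -0.93 ± 0.16, adjusted p = 0.0133). *RRM2* (Gene ID 100346325), the small subunit whose supply follows S phase, was 19.4, 74.5, 33.0, 43.3 and 34.2 CPM against 185, 121 and 111 CPM (log2 fold change -1.76 ± 0.38, adjusted p = 0.0192). The 2 subunits differed in spread, and their ratio overlapped between the groups, at 0.430 to 1.32 in Perthes rabbits and 1.25 to 2.11 in controls. *TK1*, the thymidine salvage kinase, fell by 1.73, and *TYMS*, which makes thymidylate, by 0.92. *DUT* (Gene ID 100341806), which clears dUTP, was 6.72, 12.1, 8.34, 5.97 and 6.47 CPM against 13.5, 13.2 and 14.1 CPM. Perthes rabbit 2 lay close to the controls, and edgeR did not call the gene (log2 fold change -0.78 ± 0.24, adjusted p = 0.0603) while DESeq2 did (adjusted p = 0.0220). *DUT* and *CDC45* were the only members whose deposited counts included values that were not whole numbers.

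The 5 genes of S phase entry all fell and together stood lowest against the controls, at a mean of 19.5% of the control mean. Their summed level was 7.27%, 44.3%, 15.9%, 20.1% and 9.77% of it in Perthes rabbits 1 to 5. *E2F2* accounted for the largest difference of any member and for much of this sum. *E2F2* (Gene ID 100346379), an activator E2F that erythroid precursors carry at high levels, was 4.29, 83.5, 21.99, 23.7 and 7.22 CPM in Perthes rabbits and 268, 205 and 143 CPM in controls. Every Perthes rabbit was below every control, but they differed from each other more than for any other member, so that the fold change of -2.87 ± 0.80 passed the threshold narrowly (adjusted p = 0.0437). *E2F1*, the general S phase activator, fell by 1.34 ± 0.35 (adjusted p = 0.0341). The ratio of *E2F2* to *E2F1* was 0.948 to 6.24 in Perthes rabbits and 7.55 to 9.05 in controls.

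*E2F8* (Gene ID 100350717), a repressor E2F that is itself induced in S phase, was 3.51, 12.5, 5.54, 10.99 and 4.19 CPM against 35.4, 33.4 and 32.8 CPM (log2 fold change -2.20 ± 0.40, adjusted p = 0.0136). The controls lay close together. *CCNE2* (Gene ID 100134867), a cyclin E that drives CDK2 at the start of S phase, was 5.20, 10.9, 5.62, 7.46 and 4.93 CPM against 19.6, 19.0 and 22.4 CPM (log2 fold change -1.58 ± 0.27, adjusted p = 0.0133). The other cyclin E gene, *CCNE1*, fell by 1.85 ± 0.39 on the log2 scale (adjusted p = 0.0180). The ratio of *CCNE1* to *CCNE2* overlapped between the groups.

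Both listed genes that copy chromatin behind the fork fell. *DNMT1* (Gene ID 103345712), which restores DNA methylation on the new strand, was 30.2, 41.4, 34.1, 44.5 and 34.7 CPM against 78.9, 67.0 and 53.8 CPM (log2 fold change -0.85 ± 0.18, adjusted p = 0.0192). *CHAF1B* (Gene ID 103352403), a subunit of the histone chaperone CAF-1, was 3.88, 5.95, 3.85, 5.20 and 3.85 CPM against 10.2, 7.93 and 7.42 CPM (log2 fold change -0.91 ± 0.23, adjusted p = 0.0294). They were the only role group in which Perthes rabbit 4 had the highest summed level of the 5.

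**Figure D4:**
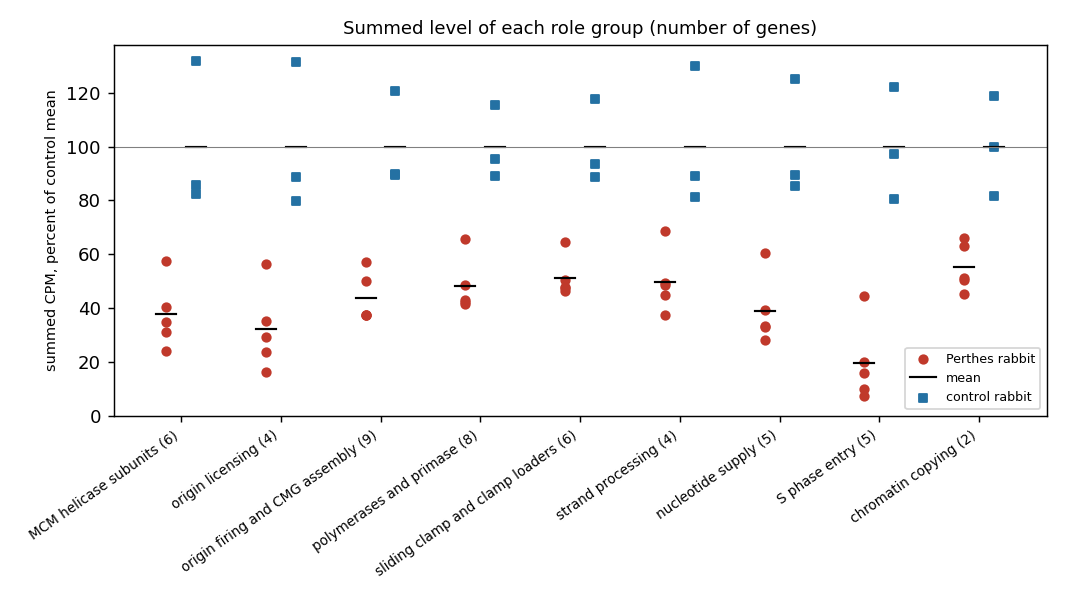
Summed CPM of the listed members of each role group in every rabbit, as a percent of the mean of the 3 controls, with the group mean as a bar. Every Perthes circle lies below every control square in all 9 groups, and the Perthes mean runs from 19.5% for S phase entry to 55.3% for chromatin copying.

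An exact two-sided permutation test over the 56 divisions of the 8 rabbits into 5 and 3 gave its smallest possible p, 0.036, for each member whose groups did not overlap, and 0.071 for *GINS3* and *RPA2* and 0.32 for *DSCC1*. That test takes each gene alone and is not adjusted for the number of genes. The 8 members that edgeR did not call were *CDT1*, *GINS3*, *PRIM2*, *POLD3*, *RFC5*, *DSCC1*, *RPA2* and *DUT*. DESeq2 called *CDT1*, *RFC5* and *DUT* of these.

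Genes of the wider replication machinery that are not members were also examined. Of 54 further replication and G1/S genes, 50 were tested, 25 fell and none was called higher by edgeR, with a median log2 fold change of -0.67. At an unadjusted p below 0.05, 33 were lower and 1 was higher, and DESeq2 called 27 lower and 1 higher. Over all genes tested, edgeR called 8.86% lower and 6.21% higher. Unadjusted, 2538 of all 15305 genes were lower and 2345 higher, and DESeq2 called 1917 lower and 1700 higher. *CCNA2*, the S phase cyclin A, was 7.90, 15.9, 7.05, 11.7 and 8.61 CPM against 32.4, 38.01 and 39.8 CPM (log2 fold change -1.84 ± 0.27, adjusted p = 0.0118). *E2F4*, a repressor E2F of resting cells that is also abundant in erythroid precursors, was 29.2, 55.3, 33.7, 35.8 and 32.4 CPM against 116, 111 and 84.0 CPM (log2 fold change -1.47 ± 0.22, adjusted p = 0.0118). *RRM2B*, the p53-responsive ribonucleotide reductase subunit, was the 1 gene of these 50 that was higher in every Perthes rabbit than in every control, at 8.50 to 17.9 CPM against 4.82 to 7.42 CPM, but it was not called (log2 fold change 0.90 ± 0.29, adjusted p = 0.0652). It was named after its values were seen.

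Genes of mitosis were lower too. Of 16 mitosis genes 15 fell, with a median log2 fold change of -1.78, and in all 16 every Perthes rabbit was below every control. *BUB1*, a spindle checkpoint kinase, had a log2 fold change of -2.03 ± 0.25 and *CENPF*, a kinetochore protein, one of -1.87 ± 0.29 (adjusted p = 0.0118 for each). *BIRC5* was the gene not called (log2 fold change -1.47, adjusted p = 0.0638). The summed 49 replication members divided by the summed mitosis genes gave 1.70 to 2.67 in Perthes rabbits and 1.15 to 1.54 in controls. The mitosis sum was thus lower relative to the members in every Perthes rabbit than in every control. *MKI67* gave a mean of 827 CPM of the control mean mitosis sum of 1862 CPM, and 146 of 463 CPM in Perthes rabbits. The ratio without *MKI67* was not examined here. Among 9 tested CDK inhibitor and G1 cyclin or kinase genes, 5 fell and 2 rose. *CDKN1A*, which encodes the CDK inhibitor and PCNA ligand p21, rose from 38.7, 42.0 and 57.6 CPM in controls to 236, 176, 226, 147 and 244 CPM (log2 fold change 2.16 ± 0.25, adjusted p = 0.0118). *CDKN1B*, which encodes p27, fell by 1.02 ± 0.18 (adjusted p = 0.0136).

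Markers of blood precursors moved with the replication genes. In these bulk libraries, fewer dividing cells and less RNA of these genes per cell cannot be told apart. All 12 erythroid markers were lower in every Perthes rabbit than in every control, with a median log2 fold change of -3.05. *TFRC*, the transferrin receptor, was called lower by edgeR (log2 fold change -0.67 ± 0.19, adjusted p = 0.0443), and 7 of the 12 were called by DESeq2. Their summed level was 678, 3292, 894, 1075 and 671 CPM in Perthes rabbits and 7502, 7384 and 6650 CPM in controls. Perthes rabbit 2 was highest here as it was for the members. The 4 listed neutrophil precursor markers (*MPO*, *CEBPE*, *LTF* and *CAMP*; 4 more were not listed) summed to 7.67, 737, 344, 652 and 64.6 CPM against 9611, 2542 and 2422 CPM, with control rabbit 1 highest as for the members. Of these, *CEBPE* was called lower. All 5 listed megakaryocyte markers were lower in every Perthes rabbit, and *ITGA2B*, the platelet integrin subunit, was called (log2 fold change -2.71 ± 0.66, adjusted p = 0.0274).

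**Figure D5:**
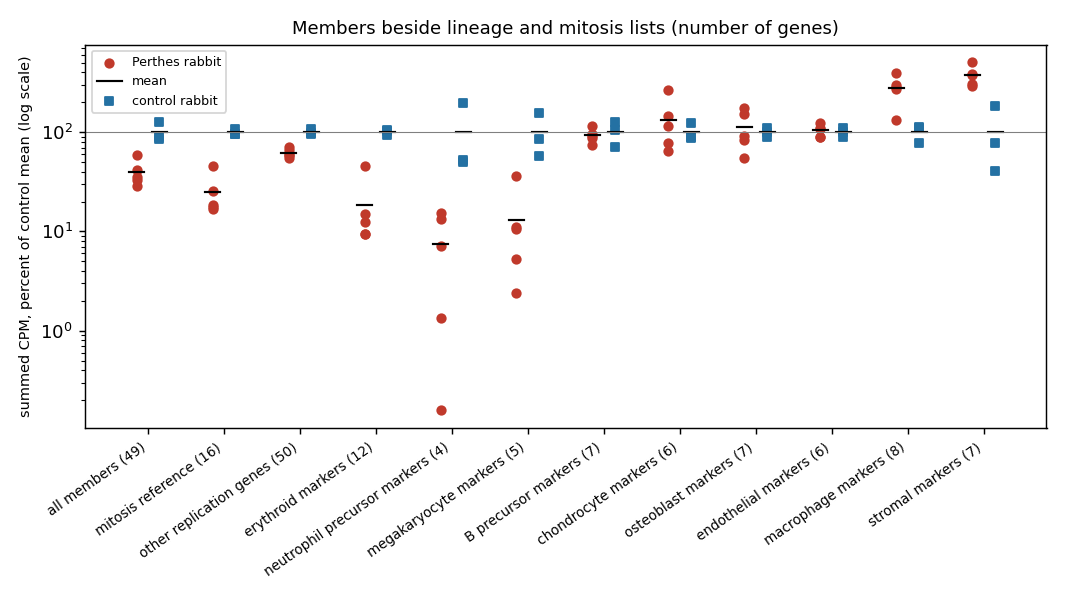
Summed CPM of the members, of the mitosis and further replication genes and of marker lists in every rabbit, as a percent of the mean of the 3 controls on a log scale, with the group mean as a bar. Erythroid, neutrophil precursor and megakaryocyte sums lie lower in all Perthes rabbits, macrophage and stromal sums higher. The B precursor (mostly *EBF1*), chondrocyte (mostly *COL2A1*), osteoblast (mostly *COL1A1*) and endothelial sums overlap.

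The B precursor list was not uniform. Its summed level was 49.9 to 77.6 CPM in Perthes rabbits and 47.4 to 84.8 CPM in controls, but *EBF1*, which stromal cells also express, gave 48.1% to 91.7% of the sum of a library and was the only tested gene of the list with a positive log2 fold change (0.32, adjusted p = 0.418). The other 5 tested genes were negative, and the median over all 6 was -0.89. None of the 6 was called by edgeR, 1 was lower at an unadjusted p below 0.05 and DESeq2 called 1. Without *EBF1* the listed B precursor markers summed to 4.53 to 23.9 CPM in Perthes rabbits and 24.6 to 32.3 CPM in controls, lower without overlap by a small margin. *EBF1* was singled out after its values were seen. Chondrocyte sums were 34250 to 139100 CPM against 45850 to 64830 CPM, and osteoblast and endothelial sums also overlapped. *COL2A1* gave a mean of 60440 CPM of the Perthes mean chondrocyte sum of 70310 CPM, and *COL1A1* 91230 of 93040 CPM for osteoblasts. These sums thus mostly show 1 gene each. All 5 tested chondrocyte markers were positive, with a median of 0.99, and the 7 osteoblast markers had 4 positive and 3 negative values. None of these was called by edgeR, and DESeq2 called 1 osteoblast marker higher. Macrophage markers summed to 1856 to 5490 CPM against 1070 to 1583 CPM, and 4 of 8 rose, with *CD68* and *CTSK* at the smallest p. *CTSK* gave a mean of 2388 CPM of the Perthes mean sum of 3824 CPM, and 672 of 1390 CPM in controls. The list was not uniform, as 7 values were positive and that of *MARCO* was negative (log2 fold change -2.19, adjusted p = 0.0541 by edgeR). DESeq2 called 1 of the 8 lower. Stromal markers summed to 14230 to 24860 CPM against 1981 to 8930 CPM, and 2 of 7, *THY1* and *COL3A1*, rose. *COL3A1* gave a mean of 15490 CPM of the Perthes mean sum of 18290 CPM, and 3054 of 4897 CPM in controls. Of the 7 values 6 were positive, and that of *CXCL12* was negative (log2 fold change -1.39, adjusted p = 0.136 by edgeR).

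Relative to the erythroid markers the replication members were higher in the Perthes rabbits, not lower. The summed members divided by the summed erythroid markers gave 1.04, 0.439, 0.979, 0.938 and 1.21 in Perthes rabbits and 0.410, 0.300 and 0.311 in controls. *TFRC*, which cells other than erythroid precursors also express, made up 17.7% to 94.6% of the erythroid sum in Perthes rabbits and 11.4% to 14.2% in controls, and so set much of these values. Without it the other 11 markers summed to 36.7 to 2710 CPM against 5704 to 6650 CPM, and the ratio was 19.1, 0.533, 1.87, 1.93 and 8.93 against 0.462, 0.339 and 0.362. The ratio was higher in every Perthes rabbit either way, by a narrow margin in Perthes rabbit 2. The same ratio to the neutrophil precursor markers was 1.55 to 91.6 against 0.320 to 0.871. Most of that neutrophil sum was *LTF* and *CAMP*, with means of 2544 and 1910 of 4858 CPM in controls. In Perthes rabbits they gave 179 and 141 of 361 CPM. For the full B precursor list the ratio was 11.2 to 18.6 in Perthes rabbits and 26.1 to 64.8 in controls. It was thus lower in every Perthes rabbit, opposite in direction to the erythroid and neutrophil ratios. *EBF1* held much of that B precursor sum. Without *EBF1* the ratio overlapped between the groups, at 48.9 to 179.8 against 68.6 to 125. The blood precursor markers of the erythroid and neutrophil lists therefore stood further below their control level than the members did, and the part of each cell type in the members' values was not tested.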

How the data were processed

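Total RNA of 8 femoral heads (5 μg each) was depleted of ribosomal RNA, made into directional libraries and sequenced as 150 bp read pairs. The authors filtered reads with SOAPnuke, mapped them with HISAT2 2.0.4 and counted reads per gene with RSEM 1.1.17 and HTSeq 1.99.2 (versions per the submitters' processing notes). The deposited values were expected counts per gene, without normalization, which were rounded. Another 8 per-sample columns repeat these and were not used. The third control, whose title and code give different numbers, is called control rabbit 3 after its code. Small RNA libraries were not used.

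Counts were scaled by TMM, filtered with filterByExpr by group (15305 genes) and tested with the quasi-likelihood F-test of edgeR 4.0.16 in R 4.3.3, after a test on simulated data. The SE was taken as the size of the log2 fold change over the square root of F. The common biological coefficient of variation was 0.361, so at this depth precision was set by variation between rabbits for most members. Log2 CPM for permutation used a prior count of 2. Members and lists were chosen with earlier results of these data known. Genes given in every rabbit were the 2 with the smallest and the 1 with the largest p per role, members with the opposite sign and members called by DESeq2 alone, and the 2 with the smallest p of other lists; *PRIM1*, *PRIM2* and others were added after their values were seen. Alternatives were DESeq2 1.42.0, other scalings and filters, stricter thresholds, a block for the replicate number, and fits without each rabbit. Promoter sequences were not analysed here, and some single results of marker genes are not reported here.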

Additional observations from a re-analysis of the deposited data

Results flagged for a closer look

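Among the 49 members tested within the 5 Perthes rabbits, 2 had a library far from the others on the log2 CPM scale, where chance alone marks about 1 group in 20. *PCNA* was 67.5 CPM in Perthes rabbit 2 and 49.4 to 53.6 CPM in the other Perthes rabbits, and the gap was 0.739 of the range of the group, above the critical value of 0.71 for 5 samples. *RFC4* was 7.64 CPM in the same rabbit and 5.07 to 5.46 CPM in the others, with a gap of 0.819 of the range. Both genes fell without Perthes rabbit 2 as well as with it.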

How the results depend on the processing

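Of the 49 members, edgeR called 41 lower in the main analysis, and between 0 and 43 when each rabbit was left out in turn. Over all genes it called 1356 lower in the main analysis, and between 0 and 1628 with a rabbit left out. It called 41 with the size factors of DESeq2, 45 with library totals alone, 40 with TMM computed without the 10 most highly counted genes, 38 without the filter on low counts and 42 with at least 10 counts in every library. In the same order these settings called 1365, 1705, 1301, 1261 and 1260 of all genes lower. DESeq2 called 44 members and 1917 of all genes lower. At the thresholds of the paper (log2 fold change beyond 2 and adjusted p below 1e-05), DESeq2 called 0 members and edgeR called 0. Over all genes DESeq2 called 95 lower and 101 higher there, and edgeR called 0 in each direction. The counts of 0 therefore do not set the members apart. Both tools called fewer genes than the paper reported at these cutoffs, and the reason was not tested. The edgeR fit at these thresholds was added after seeing the data, as were the DESeq2 fits with a rabbit left out. No member was called higher in any of these fits, 48 members were negative in each, and the median log2 fold change lay between -0.96 and -1.31.

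With a replicate block for the libraries that share a number, edgeR called 0 members (38 at an unadjusted p below 0.05, median -1.13) and 0 genes of any kind. The sources did not say whether rabbits that share a number were paired. Same-numbered libraries correlated at -0.317, 0.161 and -0.238 in their deviations from the group means (mean -0.131). Other pairs ran from -0.314 to 0.435 (mean 0.0319). With so few same-numbered pairs, lying within the scatter of the others, these values cannot show whether the numbers pair the rabbits. The loss of calls without control rabbit 1 or 2 affected all genes, with 184 and 0 called lower, and its cause was not tested. That *PRIM2*, *POLD3* and *GINS3* missed the threshold in edgeR and DESeq2 does not show that they did not differ.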
